A study of Mus musculus with 9 samples.

Results

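The dystrophin-glycoprotein complex was followed through its core genes Dmd, Utrn, Dag1, Sgca, Sgcb, Sgcd, Sspn and Dtna in C2C12 cells, mouse myoblasts that stop dividing and join into multinucleate myotubes once growth factors are withdrawn. These 8 genes were taken as a fixed list and found by Ensembl identifier among the 47728 genes of each count file. Polyadenylated RNA was sequenced from 3 genotypes, namely an Fkbp5 knockdown, an Fkbp4 knockdown and a control, each at days 0, 3 and 5, which gave 9 libraries and 1 library per genotype and day. All cells were grown with fetal bovine serum, seeded ahead of day 0 and given insulin, transferrin and selenium from day 0, and the labels name the later medium changes only as DMEM with HS. The labels name neither the knockdown method nor the number of clones or cultures behind a genotype, so p-values measure only the spread between these libraries.

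Dystrophin ties the actin cytoskeleton of a muscle fibre to dystroglycan, a membrane receptor that binds laminin and other matrix proteins outside the cell. The sarcoglycans and sarcospan sit beside dystroglycan in the membrane and steady it, while dystrobrevin binds dystrophin inside the cell and brings in the syntrophins. Utrophin is the autosomal relative of dystrophin and can take its place, above all in immature muscle and at the neuromuscular junction. Loss of dystrophin, of alpha-, beta- or delta-sarcoglycan or of the sugar chain on dystroglycan causes muscular dystrophy.

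The promoters of 4 genes are shown because these genes carry the contrasts described here, with Dmd nearly absent, Sgca gaining most with differentiation, Sgcb differing between the knockdowns and Dag1 the most abundant per length on average. RefSeq promoters (GRCm38.p6) were matched for 7 of the 8 genes, 10 promoters in all, Dtna being the one without. The first listed of each gene is printed, and each sequence gives the 250 bases before the transcript start, 5′ to 3′ on the strand of the gene. Capitals mark matches, on either strand, to the E-box CANNTG, the MCAT element CATTCC, the GC box GGGCGG, the MEF2 site and the CArG box.
Dmd, chrX:82948620-82948869, plus strand: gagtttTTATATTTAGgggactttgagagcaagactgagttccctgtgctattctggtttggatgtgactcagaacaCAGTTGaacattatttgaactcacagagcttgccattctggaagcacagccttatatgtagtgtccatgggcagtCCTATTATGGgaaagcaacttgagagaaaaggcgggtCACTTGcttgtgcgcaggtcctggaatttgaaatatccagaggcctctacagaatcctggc
Sgca, chr11:94976328-94976577, minus strand: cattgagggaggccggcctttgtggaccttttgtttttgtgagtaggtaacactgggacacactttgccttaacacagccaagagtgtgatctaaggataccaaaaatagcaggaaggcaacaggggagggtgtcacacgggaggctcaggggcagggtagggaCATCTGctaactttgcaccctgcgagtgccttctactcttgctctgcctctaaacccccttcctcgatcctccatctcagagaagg
Sgcb, chr5:73647738-73647987, minus strand: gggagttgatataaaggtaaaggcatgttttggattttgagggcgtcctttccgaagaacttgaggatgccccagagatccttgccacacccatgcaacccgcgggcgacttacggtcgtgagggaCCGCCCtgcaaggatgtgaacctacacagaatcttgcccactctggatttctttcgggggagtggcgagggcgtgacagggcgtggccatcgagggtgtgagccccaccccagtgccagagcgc
Dag1, chr9:108263959-108264208, minus strand: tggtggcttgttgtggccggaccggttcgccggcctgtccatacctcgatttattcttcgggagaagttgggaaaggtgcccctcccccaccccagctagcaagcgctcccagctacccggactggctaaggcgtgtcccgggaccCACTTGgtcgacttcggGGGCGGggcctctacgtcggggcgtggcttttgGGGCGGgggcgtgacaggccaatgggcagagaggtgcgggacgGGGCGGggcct

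The promoter at the 5′ end of Dmd held 1 MEF2 site and 1 CArG box, which occur in 1.69% and 1.47% of the 32817 RefSeq promoters scanned, and 2 matches to CANNTG, which occurs in 66.2%. MEF2 factors and serum response factor, which bind these sites, act on many muscle genes. The second Dmd promoter, at chrX:85048045-85048294, held 3 GGGCGG matches and no other of these motifs. The Sgca promoter held 1 CANNTG match and no other of these motifs. The Sgcb promoter held 1 GGGCGG match, a motif found in 32.7% of promoters, and the Dag1 promoter held 3 of them beside 1 CANNTG match, as did a second Dag1 promoter that overlaps it. CATTCC, found in 12.6% of promoters, was absent from these 4 windows. Among the promoters not printed, that of Sgcd and each of those of Sspn held 1 CATTCC match, and that of Utrn held 0. A match is a string of letters in this window, and no binding was measured.

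On the GRCm38 build, Dmd (ENSMUSG00000045103) lies on chromosome X from 82948870 to 85206141, plus strand, and its exons cover 23801 bases. Utrn (ENSMUSG00000019820) lies on chromosome 10 from 12382188 to 12869365, minus strand, with 17108 exon bases. Dag1 (ENSMUSG00000039952) lies on chromosome 9 from 108204634 to 108263958 and Sgcb (ENSMUSG00000029156) on chromosome 5 from 73632749 to 73647790, both on the minus strand. Sgca (ENSMUSG00000001508, 94962791 to 94976327) and Sgcd (ENSMUSG00000020354, 46896253 to 47988969) share chromosome 11 and its minus strand. Sspn (ENSMUSG00000030255) lies on chromosome 6 from 145931641 to 145965223 and Dtna (ENSMUSG00000024302) on chromosome 18 from 23415135 to 23659715, both on the plus strand. The values are whole-gene counts, so isoforms are not separated. The TruSeq RNA v2 kit does not mark strand, and exon bases shared with another gene amount to 1.38% in Sspn, through the antisense gene Sspnos, to 0.532% in Dtna and to 0% in the other 6 genes.

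Total counts were 3932372 to 5568486 reads per library, so 3 reads, the limit that a count of 0 allows, correspond to 0.539 to 0.763 CPM, the read count scaled to the library total. Gene levels are given in CPM with TMM normalisation. Fkbp5 stood at 4.46, 3.17 and 4.59 CPM on days 0, 3 and 5 in the Fkbp5 knockdown, against 20.0, 7.31 and 14.7 CPM in the control (log2 fold change −1.72, edgeR adjusted p = 0.00825). This call was made in 14 of 17 alternative settings and missed without the Fkbp5 knockdown at day 5 (−1.77, adjusted p = 0.0536), without day 5 (−1.75, 0.0934) and with no day term (−1.78, 1.0). Fkbp4 stood at 60.0, 26.9 and 23.9 CPM on these days in the Fkbp4 knockdown, against 240, 142 and 137 CPM in the control (−2.28, edgeR adjusted p = 1.90e-05, called in 16 of 17 settings). All 10 muscle markers, among them Myog, Myh3 and Ckm, were detected in every library. The adipocyte markers summed to 5.04 to 13.6 CPM over the libraries, most of it Pparg at 4.41 to 13.4 CPM. Fabp4 had 20 reads in all, and Adipoq, Plin1, Cidec, Lep and Cfd had 0 throughout. The immune and endothelial markers summed to 1.93 to 4.84 CPM. Schwann cell and neuron markers summed to 1.36 to 3.50 CPM, and osteoblast and chondrocyte markers to 56.4 to 86.1 CPM, most of it Sox9 at 55.1 to 82.4 CPM. The Fkbp5 knockdown day 5 library stood apart in its mitochondrially encoded reads, with 10.1% of counts against 1.78% to 5.01% in the other 8 libraries.

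Dystrophin mRNA, the defining transcript of the complex, was scarcely detected in these cells, while utrophin mRNA was plentiful. Dmd had 0, 0 and 3 reads on days 0, 3 and 5 in the Fkbp5 knockdown, 0, 2 and 2 reads in the Fkbp4 knockdown, and 1, 3 and 6 reads in the control. The 17 reads in all stood against 5919 reads of Utrn, whose exons are shorter. Utrn therefore had 484 times as many reads per kilobase of exon, and Dmd made up 0.286% of the reads of the pair. By library the Dmd share of the pair's reads ran from 0% in 3 knockdown libraries to 0.792% in the control at day 5, where the exact binomial 95% interval, which like all intervals here covers counting error only, was 0.291% to 1.71%. With no read of Dmd, the Fkbp5 knockdown day 3 library allowed a share of up to 0.453%.

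The few Dmd reads were more numerous on later days and in the control, and their counting intervals were wide. On library totals, Dmd had 0.0755 CPM (exact Poisson 95% interval 0.00191 to 0.421) at day 0, 0.352 (0.114 to 0.823) at day 3 and 0.802 (0.40 to 1.44) at day 5, summed over the genotypes. Summed over the days it had 0.228 CPM (0.047 to 0.667) in the Fkbp5 knockdown, 0.265 (0.0721 to 0.678) in the Fkbp4 knockdown and 0.777 (0.372 to 1.43) in the control. The intervals of each knockdown and the control overlapped, as did those of neighbouring days, while those of days 0 and 5 met only at their ends. Overlap of intervals is no test of a difference. Dmd did not pass the filter on low counts, so it has no test, and 7 of the 8 genes were tested among 12498 genes. The Dmd gene spans 5 other annotated genes, of which 1 had reads, 79 over the 9 libraries.

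**Figure D1:**
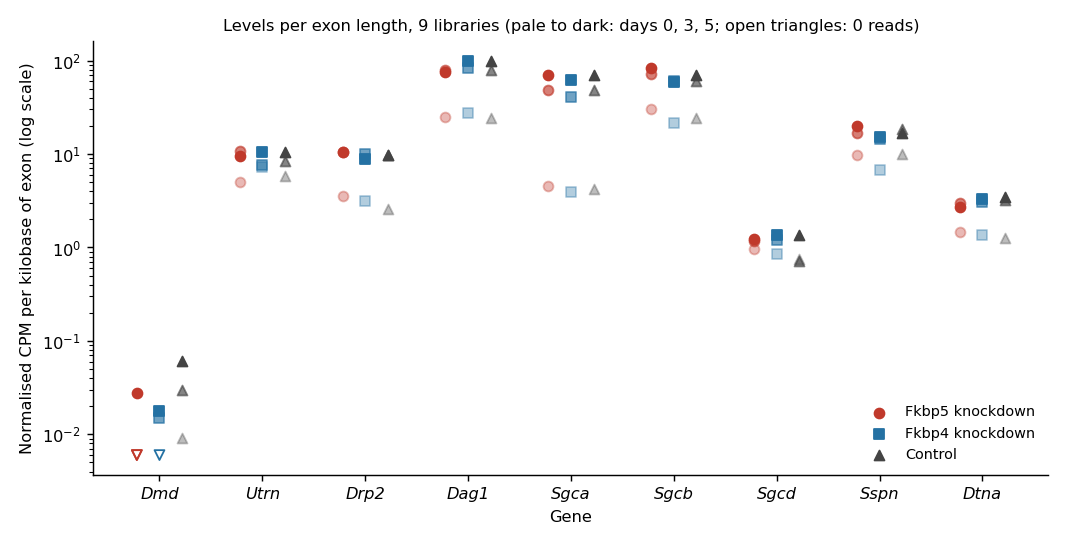
Normalised CPM per kilobase of exon on a log axis for Dmd, Utrn, Drp2, Dag1, Sgca, Sgcb, Sgcd, Sspn and Dtna, 1 point per library, with colour and shape giving the genotype (Fkbp5 knockdown, Fkbp4 knockdown, control) and shade the day. Dmd averages 0.0177 and Utrn 8.39, and the 3 libraries without a Dmd read are drawn as open triangles at the bottom.

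Set on a per-length scale, the members differed widely in level. Dag1 averaged 65.6 normalised CPM per kilobase of exon over the 9 libraries, Sgcb 53.4, Sgca 39.1, Sspn 14.2, Utrn 8.39, Dtna 2.53, Sgcd 1.07 and Dmd 0.0177. Neighbours in this order whose ranges over libraries overlapped were Dag1 (24.3 to 98.7) with Sgcb (21.7 to 83.3), Sgcb with Sgca (3.92 to 70.6), Sgca with Sspn (6.72 to 20.1), Sspn with Utrn (4.97 to 10.7), and Dtna (1.25 to 3.46) with Sgcd (0.714 to 1.37). Sgcb was above Dag1 in the Fkbp5 knockdown on day 0 (30.3 against 25) and day 5 (83.3 against 76), and below it in the other libraries. Every Utrn value was above every Dtna value, and every Sgcd value was above every Dmd value, the highest of which was 0.0608. Outside the list, the dystrophin-related gene Drp2 averaged 7.65 on this scale.

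The study asked how depletion of Fkbp5 or Fkbp4 bears on myoblast differentiation, and the day comparisons show how the complex changed over the days of differentiation. Between day 0 and day 5 all 7 tested members rose, led by the sarcoglycan Sgca. Each day effect is the change shared by the 3 genotypes, from edgeR's quasi-likelihood test in a model of genotype plus day, with Benjamini-Hochberg adjustment over all genes that passed the filter. Called means an adjusted p under 0.05. The same comparison called 58.3% of all genes tested, and 29.5% were called higher. The median log2 fold change of the 7 members was 1.21, beside 0.00746 over all genes tested.

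Sgca encodes alpha-sarcoglycan, the sarcoglycan confined to striated muscle. It stood at 7.87, 84.6 and 120 CPM on days 0, 3 and 5 in the Fkbp5 knockdown, at 6.80, 70.9 and 106 CPM in the Fkbp4 knockdown, and at 7.26, 83.7 and 122 CPM in the control. Every day 3 library was above every day 0 library and below every day 5 library. The rise was 10.9-fold at day 3 over day 0 (log2 fold change 3.44, SE 0.113, adjusted p = 2.13e-08) and 15.9-fold at day 5 over day 0 (3.99, SE 0.112, adjusted p = 4.79e-09).

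Dag1, which encodes both subunits of dystroglycan, stood at 159, 505 and 483 CPM on days 0, 3 and 5 in the Fkbp5 knockdown, at 175, 526 and 624 CPM in the Fkbp4 knockdown, and at 154, 498 and 628 CPM in the control. The day 0 libraries lay far below all later ones, and the Fkbp5 knockdown at day 5 was the lowest of the 6 later libraries. The rise was 3.14-fold at day 3 (1.65, SE 0.112, adjusted p = 9.78e-07) and 3.55-fold at day 5 (1.83, SE 0.113, adjusted p = 3.66e-07), both over day 0.

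Sgcb, beta-sarcoglycan, which forms the core of the sarcoglycan unit together with delta-sarcoglycan, stood at 123, 292 and 337 CPM on days 0, 3 and 5 in the Fkbp5 knockdown. It stood at 88.0, 246 and 238 CPM in the Fkbp4 knockdown and at 98.2, 245 and 280 CPM in the control. All later libraries were above all day 0 libraries. The rise was 2.55-fold at day 3 (1.35, SE 0.0957, adjusted p = 1.30e-06) and 2.77-fold at day 5 (1.47, SE 0.0959, adjusted p = 5.29e-07).

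Dtna, alpha-dystrobrevin, stood at 24.7, 51.1 and 45.9 CPM on days 0, 3 and 5 in the Fkbp5 knockdown, at 23.2, 51.7 and 55.2 CPM in the Fkbp4 knockdown, and at 21.1, 54.2 and 58.6 CPM in the control. Its day 0 libraries were all below its later ones, with a rise of 2.28-fold at day 3 and 2.31-fold at day 5 (log2 fold change 1.21, SE 0.124, adjusted p = 1.33e-05). Sspn, sarcospan, a membrane protein that binds the sarcoglycans, stood at 49.0, 83.9 and 101 CPM in the Fkbp5 knockdown, at 33.6, 72.2 and 75.8 CPM in the Fkbp4 knockdown, and at 50.0, 92.7 and 82.9 CPM in the control. Here too day 0 lay below all later libraries, and Sspn rose 1.89-fold at day 3 and 1.97-fold at day 5 (0.98, SE 0.114, adjusted p = 3.47e-05).

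Utrn changed less and less evenly. It stood at 85.0, 184 and 165 CPM on days 0, 3 and 5 in the Fkbp5 knockdown, at 124, 131 and 180 CPM in the Fkbp4 knockdown, and at 99.9, 142 and 181 CPM in the control. The day 0 libraries were below all later ones, and the Fkbp4 knockdown had much the same level on days 0 and 3. Utrn rose 1.48-fold at day 3 (0.57, SE 0.16, adjusted p = 0.012) and 1.70-fold at day 5 (0.77, SE 0.159, adjusted p = 0.0018). That day 3 call did not hold when the day 0 library of the Fkbp5 knockdown was left out (0.41, adjusted p = 0.0549) or without the whole Fkbp5 knockdown (0.31, adjusted p = 0.0633), and over 17 alternative settings its adjusted p ran from 8.51e-06 to 0.0633.

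Sgcd, delta-sarcoglycan, changed least of the 3 sarcoglycans of the list. It stood at 7.87, 9.73 and 10.1 CPM on days 0, 3 and 5 in the Fkbp5 knockdown, at 7.0, 9.86 and 11.3 CPM in the Fkbp4 knockdown, and at 6.16, 5.90 and 11.3 CPM in the control, on 25 to 56 reads per library. The control at day 3 was the lowest library of all, days 0 and 3 overlapped, and every day 5 library was above every earlier one. Its log2 fold change was 0.28 at day 3 over day 0 (SE 0.226, adjusted p = 0.327), which did not pass, and 0.65 at day 5 (SE 0.222, adjusted p = 0.0279), a call made in 10 of 17 alternative settings with adjusted p-values of 0.0184 to 0.137. It was lost with DESeq2 (adjusted p = 0.104), without the day 0 or the day 5 library of the Fkbp4 knockdown (0.108 and 0.0599) and without that of the control (0.0735 and 0.137).

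**Figure D2:**
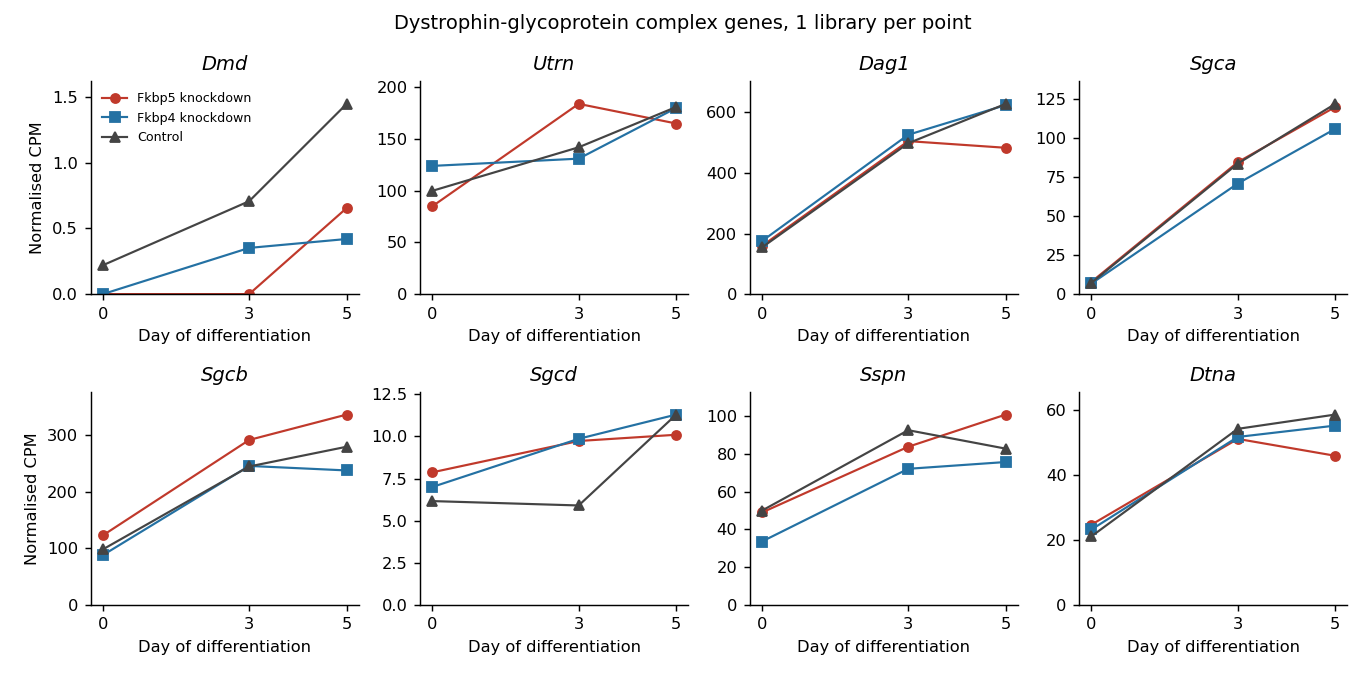
Normalised CPM (vertical axis, from 0) by day of differentiation (horizontal axis) for each of the 8 genes, with 1 library per point and lines joining the libraries of the Fkbp5 knockdown, the Fkbp4 knockdown and the control. Sgca lies between 6.80 and 7.87 CPM at day 0 and between 106 and 122 CPM at day 5, while Dmd reaches 1.45 CPM at most.

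Most of this change was present at day 3. At day 3 over day 0, 6 of 7 tested members rose, Sgcd being the one that did not pass, where 52.8% of all genes were called and 26.7% were called higher. At day 5 over day 3, 6.14% of all genes were called and 3.74% were called higher, and 1 of 7 members rose. This was Sgca, at 1.46-fold (0.55, SE 0.0853, adjusted p = 0.00495), a call missed with limma voom (adjusted p = 0.0652), without the Fkbp4 knockdown (0.0607) and without the control (0.104), over a range of 0.000244 to 0.104 in 17 settings. The other 6 log2 fold changes of day 5 over day 3 lay between 0.02 (Dtna) and 0.37 (Sgcd). The muscle markers rose in the same libraries, 10 of 10 at day 5 over day 0 with a median log2 fold change of 4.94, and their summed level was 11400 to 16100 CPM at day 5 against 1210 to 1240 CPM at day 0. In bulk RNA, more muscle cells and more of a transcript per muscle cell cannot be told apart.

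**Figure D3:**
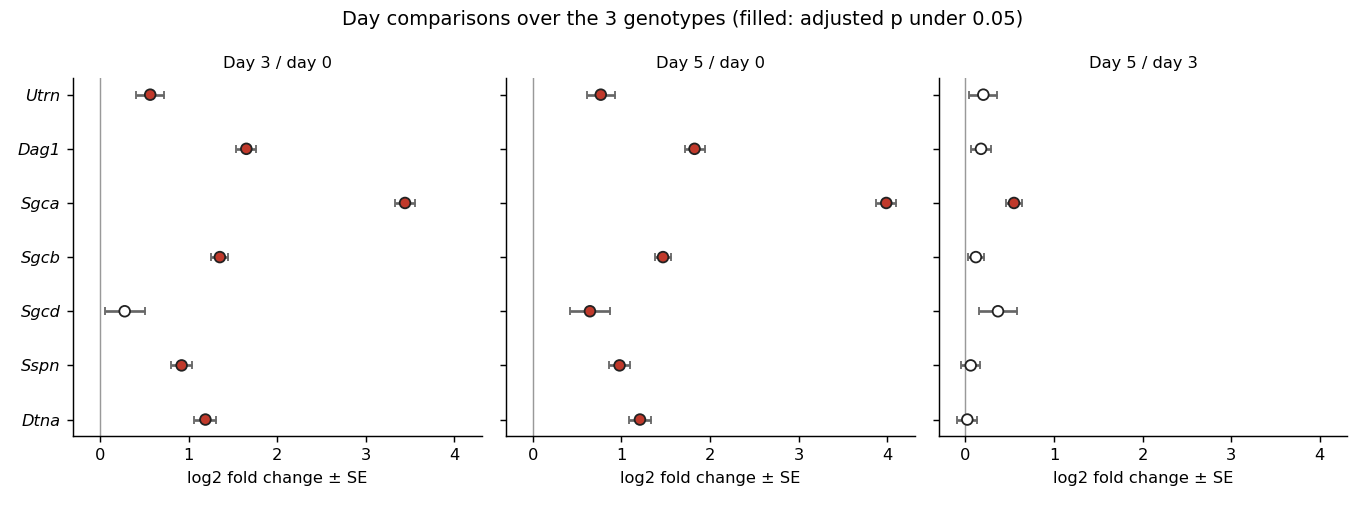
Log2 fold change (horizontal axis) with its standard error for the 7 tested members at day 3 over day 0, day 5 over day 0 and day 5 over day 3, from the edgeR model over 9 libraries, with filled points at an adjusted p under 0.05. Sgca stands far to the right of the others in the first comparisons, at 3.44 and 3.99, and is the filled point at day 5 over day 3, at 0.55.

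Close partners of the complex followed different courses by day 5. Of 7 tested genes among the other sarcoglycans, dystrobrevin, syntrophins and dystrophin relatives, 4 rose at day 5 over day 0, Sntb1 and Drp2 among them, and none fell, with a median log2 fold change of 0.62. Over all genes tested, 29.5% were called higher at day 5 over day 0 and 26.7% at day 3 over day 0. At day 5 over day 3, 6.14% were called in either direction. The syntrophins are adaptor proteins, and Sntb1 rose 4.40-fold (adjusted p = 5.47e-07), while the dystrophin relative Drp2 rose 3.13-fold (adjusted p = 7.55e-07). Sgce, the sarcoglycan of many tissues, had a log2 fold change of −0.01 (SE 0.114, adjusted p = 0.921). Sntb2 (0.05, adjusted p = 0.798) and Dtnb (−0.71, adjusted p = 0.107) did not pass. The same 4 genes were called at day 3 over day 0, and Sntb1 alone was called, as lower, at day 5 over day 3 (−0.57, SE 0.116, adjusted p = 0.0179, called in 10 of 17 settings). Nos1, the neuronal nitric oxide synthase that syntrophin anchors, ran from 0 to 6.51 CPM, the highest being the control at day 5. Sgcz had 1 read and Sntg1 and Sntg2 none.

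Outside the cell, 8 of 14 tested matrix ligands and basement membrane partners rose at day 5 over day 0 and 2 fell, with a median of 0.66. The share of all genes called higher was 29.5% at day 5 over day 0 and 26.7% at day 3 over day 0. The alpha-2 laminin chain Lama2, part of the main laminin of muscle, a dystroglycan ligand, rose 4.70-fold (SE 0.149 in log2, adjusted p = 6.20e-07). Lama4 rose 10.1-fold, Col6a2 5.03-fold, Col6a1 3.04-fold, Bgn 2.08-fold, Hspg2 1.70-fold, Lamb2 1.60-fold and Agrn 1.57-fold. Lama4 had 4 to 12 reads per library at day 0, and its log2 fold change of 3.33 became 4.02 without the Fkbp4 knockdown at day 0. Nid1 fell 3.29-fold (adjusted p = 6.24e-06) and Lamb1 fell 1.76-fold (adjusted p = 7.65e-05). At day 3 over day 0, 9 of these 14 rose and 2 fell, with Col6a3 and Lama5 among those called and Agrn not, and the Col6a3 call held in 10 of 17 settings.

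The enzymes that build the laminin-binding sugar of dystroglycan moved less, with 4 of 17 higher and 1 lower at day 5 over day 0 and a median of 0.20. In that comparison 29.5% of all genes were called higher, and 26.7% were at day 3 over day 0. At day 5 over day 3, 3.74% of all genes were called higher. Among those that rose, Pomgnt1 rose 1.65-fold (adjusted p = 5.54e-05), B3galnt2 1.60-fold and B4gat1 1.53-fold, while Dpm2 fell 1.44-fold. B4gat1 shares 85.3% of its exon bases with the overlapping gene AC124502.3, so its reads are uncertain. At day 3 over day 0, 6 of these 17 rose, among them Pomgnt1, B4gat1, Pomgnt2 and Dolk, Dolk in 10 and Pomgnt2 in 9 of 17 settings. At day 5 over day 3 B3galnt2 was called, as higher (0.81).

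Of 14 tested costamere genes, which link the complex and integrins to the cytoskeleton, 11 rose at day 5 over day 0 and 1, the cytoplasmic actin Actg1, fell 1.78-fold, with a median of 0.57. Among all genes tested, 29.5% were called higher at day 5 over day 0, 26.7% at day 3 over day 0 and 3.74% at day 5 over day 3. Desmin Des rose 4.15-fold, the laminin receptor subunit Itga7 3.77-fold, Flnc 3.44-fold and Sync 3.15-fold, and Vcl, Ank2, Plec, Tln1, Tln2 and Itgb1 rose 1.27-fold to 1.54-fold. The calls of Ank2 and Tln2 were made in 10 of 17 settings, those of Itgb1 and Tln1 in 11 and that of Plec in 13. Sync shares 27.3% of its exon bases with Rbbp4 and Vcl 25.5% with Ap3m1, so part of their reads may be counted elsewhere or not at all. Cav3, the muscle caveolin, which binds dystroglycan, had 0 or 1 read at day 0 and reached 16.0 CPM in the Fkbp5 knockdown, 43.1 CPM in the Fkbp4 knockdown and 42.4 CPM in the control at day 5. At day 3 over day 0, 8 of these genes rose (Ank3, Cav3, Des, Flnc, Itga7, Plec, Sync and Vcl) and 2 fell (Actg1 and Dtnbp1), with Ank3 and Plec called in 8 of 17 settings. At day 5 over day 3 Cav3 (1.53, called in 16 of 17 settings) and Des (0.46, in 7 of 17) were called, both higher. The Des call was lost, at adjusted p-values of 0.054 to 0.239, without any single day 3 or day 5 library and without the control at day 0.

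**Figure D4:**
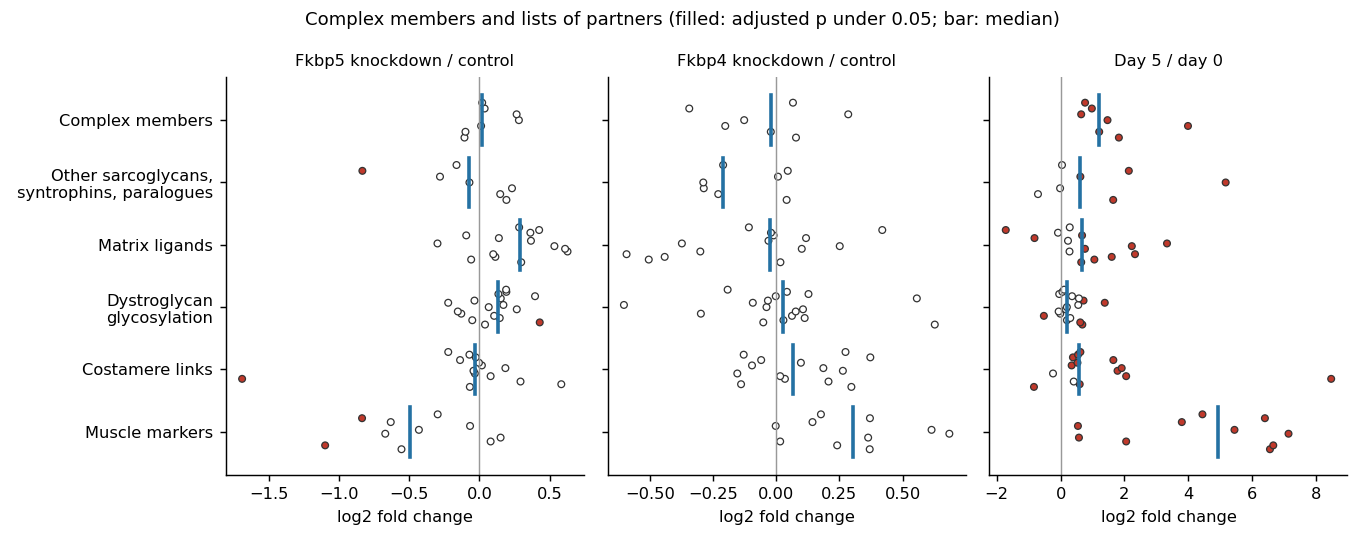
Log2 fold change (horizontal axis) of each tested gene of the complex and of 5 lists of partners and markers, for Fkbp5 knockdown over control, Fkbp4 knockdown over control and day 5 over day 0, with filled points at an adjusted p under 0.05 and a bar at the list median. Points of the complex crowd around 0 in the knockdown panels, with medians of 0.02 and −0.02, and sit at a median of 1.21 by day 5.

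No member of the complex was called in either knockdown against the control, where few genes were called at all. With 0 of 7 members called for the Fkbp5 knockdown over the control, 2.18% of all genes were called (272 genes, 1983 at an unadjusted p under 0.05). The Fkbp4 knockdown over the control likewise called 0 of 7 members and 1.08% of all genes (135 genes, 2068 at an unadjusted p under 0.05). With shares this low, 0 of 7 does not set the members apart from other genes. DESeq2 and limma voom also called 0 members in either comparison. The median log2 fold change of the members was 0.02 in the Fkbp5 knockdown, beside 0.00534 over all genes, and −0.02 in the Fkbp4 knockdown, beside 0.0179. A difference that goes one way on one day and the other way on another enlarges the error of this model and can be missed.

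In the Fkbp5 knockdown the member nearest to the threshold was Sgcb, which was higher than the control on each of the 3 days, at 123 against 98.2 CPM on day 0, 292 against 245 on day 3 and 337 against 280 on day 5. Its log2 fold change was 0.28 (SE 0.0938, adjusted p = 0.17). Sgcd differed by 0.27 (SE 0.225, adjusted p = 0.626), and Sspn (0.04), Utrn (0.02) and Sgca (0.01) lay close to 0. Dag1 differed by −0.11 (SE 0.11, adjusted p = 0.701) and Dtna by −0.10 (SE 0.121, adjusted p = 0.757).

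The same-day ratios of single libraries show how far the days differed behind those averages, with intervals from the pair of counts and no test. Dag1 in the Fkbp5 knockdown over the control had a log2 ratio of 0.04 (95% interval −0.12 to 0.20) on day 0, 0.02 (−0.07 to 0.11) on day 3 and −0.38 (−0.46 to −0.30) on day 5. Dtna had ratios of 0.22 (−0.20 to 0.65), −0.09 (−0.36 to 0.19) and −0.35 (−0.63 to −0.08). Utrn had ratios of −0.23 (−0.44 to −0.03), 0.37 (0.21 to 0.52) and −0.14 (−0.29 to 0.01), and Sspn of −0.03 (−0.31 to 0.26), −0.14 (−0.35 to 0.07) and 0.28 (0.07 to 0.48). Sgcb differed little between days, at 0.32 (0.13 to 0.51), 0.26 (0.14 to 0.38) and 0.27 (0.16 to 0.38). The intervals of Sgca and Sgcd included 0 on each day. The day 5 ratios of these genes rest on the library with 10.1% mitochondrially encoded reads, against 4.01% in the control of that day, and the part of that share in them was not tested. On library totals without TMM the Dag1 ratio at day 5 was −0.47.

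In the Fkbp4 knockdown the member nearest to the threshold was Sspn, which was lower than the control on each of the 3 days, at 33.6 against 50.0 CPM on day 0, 72.2 against 92.7 on day 3 and 75.8 against 82.9 on day 5. Its log2 fold change was −0.34 (SE 0.112, adjusted p = 0.176). Sgca differed by −0.20 (SE 0.0965, adjusted p = 0.329), also in one direction on all 3 days, and Sgcb by −0.13 (SE 0.0939, adjusted p = 0.537). Dtna (−0.02), Utrn (0.07) and Dag1 (0.08) were closer to 0, and Sgcd differed by 0.29 (SE 0.221, adjusted p = 0.558).

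**Figure D5:**
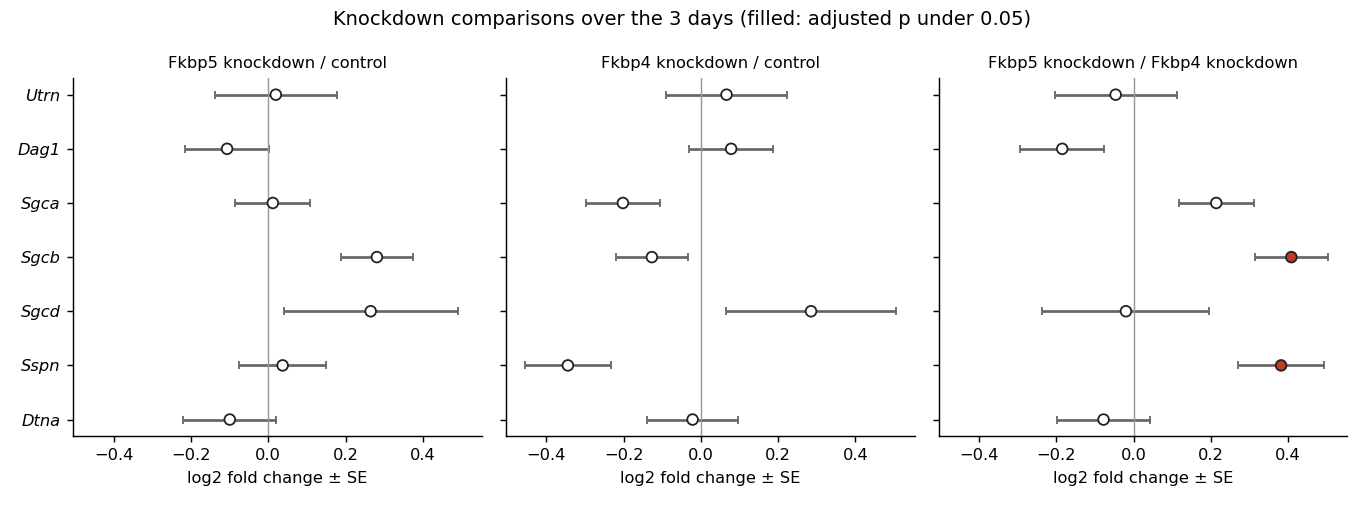
Log2 fold change (horizontal axis) with its standard error for the 7 tested members in the Fkbp5 knockdown over the control, the Fkbp4 knockdown over the control and the Fkbp5 knockdown over the Fkbp4 knockdown, over 3 libraries per genotype, with filled points at an adjusted p under 0.05. No point is filled against the control, and Sgcb at 0.41 and Sspn at 0.38 are filled between the knockdowns.

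Set against each other, the knockdowns differed in 2 of 7 members, where 13.4% of all genes were called and 7.16% were called higher in the Fkbp5 knockdown. Sgcb was 1.33-fold higher in the Fkbp5 knockdown than in the Fkbp4 knockdown (log2 fold change 0.41, SE 0.0937, adjusted p = 0.0193), and was higher on all 3 days. Sspn was 1.30-fold higher (0.38, SE 0.112, adjusted p = 0.0483), also on all 3 days. Both comparisons with the control share the control libraries, while this comparison does not use them except for the spread. The other 5 members did not pass, with log2 fold changes from −0.18 (Dag1, SE 0.109, adjusted p = 0.29) to 0.21 (Sgca, SE 0.0968, adjusted p = 0.168).

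Both calls depended on single libraries. Sgcb was called in 11 of 17 alternative settings with adjusted p-values of 0.0135 to 1.0, and it missed the threshold without the day 0 or the day 5 library of the Fkbp5 knockdown (0.0631 and 0.104) or of the Fkbp4 knockdown (0.0854 and 0.111). Sspn was called in 3 of 17 settings with adjusted p-values of 0.0335 to 0.99, and it missed the threshold with the size factors of DESeq2 in edgeR (0.0547), with DESeq2 (0.118) and with limma voom (0.065). Leaving out any single library other than the Fkbp5 knockdown at day 3 also ended the Sspn call, with adjusted p-values of 0.0541 (without the control at day 5) to 0.228 (without the Fkbp5 knockdown at day 5).

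A test of whether the knockdown effect changed with differentiation called almost no gene, so it says little about the members. In a model with the knockdown effect at days 3 and 5 set against that at day 0, 0 of 7 members were called for the Fkbp5 knockdown, where 0.032% of all genes (4 genes) were called, and 0 of 7 for the Fkbp4 knockdown, where 0.04% (5 genes) were called. At an unadjusted p under 0.05 there were 573 and 386 genes. The members' interaction values ran from −0.44 (Dtna, SE 0.26, adjusted p = 0.961) to 0.36 (Utrn, SE 0.282, adjusted p = 0.961) for the Fkbp5 knockdown, and from −0.37 (Utrn, SE 0.276) to 0.32 (Sspn, SE 0.248) for the Fkbp4 knockdown, each with an adjusted p of 1.0. This model has 2 residual degrees of freedom. It pools days 3 and 5, so a knockdown effect that differs between those days was not tested. No gene of the partner lists was called in it either.

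Among the partners, the syntrophin Sntb1 and the caveolin Cav3 were called as lower in the Fkbp5 knockdown libraries, set against the control libraries. Sntb1 stood at 6.03, 51.4 and 31.5 CPM on days 0, 3 and 5 in the Fkbp5 knockdown, against 15.0, 82.5 and 54.2 CPM in the control, and was lower on all 3 days (log2 fold change −0.83, SE 0.131, adjusted p = 0.0128). Cav3 stood at 0, 3.39 and 16.0 CPM in the Fkbp5 knockdown, against 0, 16.7 and 42.4 CPM in the control (−1.69, SE 0.248, adjusted p = 0.01). Each was called in 11 of 17 alternative settings, with adjusted p-values up to 1.0. Sntb1 missed the threshold without the Fkbp5 knockdown at day 5 (0.101), the control at day 3 (0.0715) or the control at day 5 (0.0517), and Cav3 without the control at day 3 (0.0767) or day 5 (0.075) and with limma voom (0.288). Without the Fkbp5 knockdown at day 5, Cav3 differed by −2.28. Of the 7 other sarcoglycan, dystrobrevin and syntrophin genes tested 1 was called, of 14 costamere genes 1, and of 14 matrix genes 0, with medians of −0.07, −0.03 and 0.29. Over all genes tested, 2.18% were called in this comparison. Among the matrix genes Col6a3 changed most (0.63, SE 0.171, adjusted p = 0.0985), and it passed in 5 of 17 settings, DESeq2 among them (adjusted p = 0.00906). Bgn was the matrix gene closest to 0. Of 17 glycosylation enzymes 1, B4gat1, was called as higher (0.43, SE 0.0958, adjusted p = 0.0483, called in 3 of 17 settings), and the list median was 0.14.

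Of 10 muscle markers 2 were called in the Fkbp5 knockdown over the control, where 2.18% of all genes were called. Both were lower, and the median of the 10 was −0.49. Ckm stood at 1.05, 55.7 and 100 CPM in the Fkbp5 knockdown, against 2.42, 98.1 and 256 CPM in the control (−1.10, SE 0.135, adjusted p = 0.0043, called in 12 of 17 settings), and Tnnt3 differed by −0.84 (SE 0.178, adjusted p = 0.039, called in 6 of 17 settings). The 10 markers summed to 1220, 6680 and 11400 CPM on days 0, 3 and 5 in the Fkbp5 knockdown, against 1210, 8650 and 15100 CPM in the control, while the 8 members summed to 456, 1210 and 1260 CPM, against 437, 1120 and 1370 CPM. The part of the muscle marker difference in the values of Sntb1 and Cav3 was not tested.

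In the Fkbp4 knockdown no partner gene was called against the control, where 1.08% of all genes were called. The most changed gene was Col6a2 among the matrix genes (−0.59, SE 0.136, adjusted p = 0.0706), B3galnt2 among the glycosylation enzymes (0.63, SE 0.137, adjusted p = 0.062), Tln1 among the costamere genes (0.37, SE 0.146, adjusted p = 0.243) and, among the muscle markers, Myh3 (0.69, SE 0.238, adjusted p = 0.20). The list medians were −0.21 for the other sarcoglycans, dystrobrevin and syntrophins, −0.03 for the matrix genes, 0.03 for the glycosylation enzymes, 0.07 for the costamere genes and 0.30 for the muscle markers. The genes of these lists closest to 0 were Lamb2, Pomk, Des and Myod1. Some of the most changed genes passed in other settings. Col6a2 passed in 4 of 17, DESeq2 among them (adjusted p = 0.00867), and B3galnt2 in 2 of 17. Tln1 and Myh3 each passed in 1 of 17, the setting without a filter.

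Between the knockdowns, the partner and marker lists held 17 called genes, beside 13.4% of all genes called in this comparison. Called were 2 of 7 other sarcoglycans, dystrobrevin and syntrophins, 4 of 14 matrix genes, 3 of 17 glycosylation enzymes, 3 of 14 costamere genes and 5 of 10 muscle markers. The median log2 fold changes were 0.15 for the other sarcoglycans, dystrobrevin and syntrophins, 0.39 for the matrix genes, 0.04 for the glycosylation enzymes, −0.04 for the costamere genes and −0.85 for the muscle markers. Higher in the Fkbp5 knockdown than in the Fkbp4 knockdown were the sarcoglycan Sgce (0.52, SE 0.113, adjusted p = 0.0159), the collagen VI genes Col6a1 (0.56), Col6a2 (0.69) and Col6a3 (0.93), the laminin chain Lama5 (0.40), the enzymes B4gat1 (0.48) and Rxylt1 (0.38), and the ankyrin Ank2 (0.72). Lower were Sntb1 (−0.88, SE 0.129, adjusted p = 0.00283), B3galnt2 (−0.59), Cav3 (−1.73), vinculin Vcl (−0.50), and the muscle markers Acta1 (−0.93), Ckm (−1.34), Myh3 (−1.36), Mymk (−1.05) and Tnnt3 (−1.21). Sgce stood at 52.4, 47.1 and 56.2 CPM on days 0, 3 and 5 in the Fkbp5 knockdown, against 35.6, 38.5 and 34.4 CPM in the Fkbp4 knockdown, so the groups did not overlap. It was called in 11 of 17 alternative settings, and was lost without the day 0 or day 5 library of the Fkbp5 knockdown (adjusted p = 0.0509 and 0.0989) or of the Fkbp4 knockdown (0.0651 and 0.0885). Of the other 16 genes, Rxylt1, Ank2 and Lama5 were called in 5, 6 and 9 of 17 settings and the others in 11 to 16.

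The members moved together to different degrees across the 9 libraries, which share their day and genotype structure, so these correlations are descriptions. Pearson's r of log2 CPM was highest for Dag1 with Dtna (0.991) and for Dag1 with Sgca (0.985), and lowest for Sgcd with Sspn (0.465). Sgcd had r of 0.465 to 0.671 with every other tested member, and Utrn 0.654 to 0.879. Among 10897 genes with a mean of at least 5 CPM, the genes most like each member over the 9 libraries were Pbxip1 (r = 0.999), Sertad4 and Jsrp1 for Sgca, and Cemip (0.997), Trak1 and Dusp3 for Dag1. They were Ly6c1 (0.996), Vwa5a and Acox3 for Sgcb, Sync (0.994), Paxx and Dag1 for Dtna, and Itm2b (0.99), Ly6a and Ndufs3 for Sspn. For Utrn they were Bace1 (0.978), Fam192a and Kif1c, and for Sgcd Lrrc20 (0.97), Vdac1 and Polrmt.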

How the data were processed

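RNA-seq of 9 C2C12 libraries was analysed from raw counts per gene, deposited by the authors as 1 file per library. Per the submitters' processing notes, reads were handled with CASAVA 1.8, HISAT2 2.0.2 and featureCounts 1.4.6 on mm10. Of 47728 genes, 47309 matched the GENCODE annotation used for lengths and overlaps. edgeR 4.0.16 in R 4.3.3 was fitted to the counts with filterByExpr, TMM factors (0.941 to 1.04) and the quasi-likelihood test, with genotype and day as terms, 4 residual degrees of freedom and a biological coefficient of variation of 0.125. With 1 library per genotype and day, genotypes are replicates for days and days for genotypes, so effects are averages over the other factor. Standard errors are the log2 fold change divided by the root of F. Normalised CPM use TMM, and likeness uses log2 CPM with a prior count of 2. Depth was 3932372 to 5568486 counts. Genes and lists were chosen with earlier results of these data known. Named were the 8 genes, every listed gene called in a comparison, and, for a list with no call, its most and least changed gene (the latter without a value); for the interactions lists are given as counts. Some genes that this rule names are not reported here and stand in the list counts alone. The 17 alternatives included the size factors of DESeq2, DESeq2 1.42.0, limma voom 3.58.1, no filter, protein-coding nuclear genes and each library left out. The rest were, for knockdown comparisons, day 3 left out, day 5 left out and no day term, and, for day comparisons, each genotype left out. The knockdown comparisons without day 0 were not fitted, so no setting covers them. The code was tested on simulated data.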

Additional observations from a re-analysis of the deposited data

How the results depend on the processing

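Day 5 over day 0 called 7 members in the model reported, where 58.3% of all genes were called and 29.5% were called higher. Day 3 over day 0 called 6 members, where 52.8% of all genes were called and 26.7% were called higher. With 1 library left out, these comparisons called 6 to 7 and 5 to 6 members. The counts of genes called moved by over 1.5 times as follows, with the cause not tested except that fewer libraries or days leave fewer residual degrees of freedom and that dropping the day term puts the day spread into the error. Fkbp5 knockdown over control called 272 genes, against 866 without a filter, 41 without day 3, 36 without day 5, 3 with no day term and 40 to 296 with 1 library left out. Fkbp4 knockdown over control called 135, against 222 with DESeq2, 690 without a filter, 254 over protein-coding nuclear genes, 4 without day 3, 12 without day 5, 0 with no day term and 4 to 258 with 1 library left out. Fkbp5 knockdown over Fkbp4 knockdown called 1671, against 1111 with DESeq2, 250 without day 5, 4 with no day term and 487 to 2107 with 1 library left out. Its 2 called members became 1 with the size factors of DESeq2, with DESeq2, with limma voom and without day 3, 0 without day 5 and with no day term, and 0 to 2 with 1 library left out. Day 5 over day 3 called 767 genes, against 1578 without a filter, 341 without the Fkbp4 knockdown, 159 without the control and 232 to 924 with 1 library left out, and its 1 called member became 0 with limma voom and without either of these genotypes. The Fkbp5 knockdown interaction called 4 genes, against 1 with limma voom, 107 without a filter and 7 to 35 with 1 library left out, and the Fkbp4 knockdown interaction 5, against 13, 2 and 95 with DESeq2, limma voom and no filter and 5 to 32. Interaction models without a day 0 library could not be fitted.

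Members that changed sign had uncalled values near 0. For Fkbp5 knockdown over control, leaving out 1 library gave −0.0131 to 0.0407 for Sgca, −0.199 to 0.0249 for Dtna, −0.23 to 0.171 for Utrn, −0.0933 to 0.125 for Sspn and −0.178 to 0.00638 for Dag1. Utrn was −0.186 without day 3, Dtna 0.0473, Sspn −0.0887 and Dag1 0.0303 without day 5, and Sgca −0.000867 with no day term. For Fkbp4 knockdown over control the ranges were −0.102 to 0.24 for Utrn and −0.107 to 0.0679 for Dtna, with Dtna at 0.00163 without day 3 and 0.0184 without day 5. For Fkbp5 knockdown over Fkbp4 knockdown they were −0.288 to 0.114 for Utrn, −0.128 to 0.14 for Sgcd and −0.178 to 0.0447 for Dtna, with Sgcd at 0.0653 and Dtna at 0.0289 without day 5. The same-day Dag1 ratio in the Fkbp5 knockdown at day 5 was −0.47 without TMM, against −0.377. The day term already blocks the genotypes by day, and the counts with no day term show the model without that block. No paired analysis was possible because, beyond this, the labels carry no replicate numbers. Dmd and, at day 0, Cav3 and Sgca rest on few reads, which limits their precision.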
